A study of Rattus norvegicus with 9 samples.

Results

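The Hox cluster genes of rat adipose-derived mesenchymal stem cells (ASCs) were taken as every gene of the deposited count table whose symbol was Hox, a cluster letter from a to d and a paralog number. This rule, which used names and no measured values, gave 35 of the 35362 genes in the table: 10 of the Hoxa cluster, 10 of Hoxb, 8 of Hoxc and 7 of Hoxd. Counts on these genes were compared among ASCs grown from 3 fat depots of male Sprague Dawley rats aged 6 weeks. SASCs came from subcutaneous fat of the groin, PASCs from perirenal fat and EASCs from epididymal fat. All were cells that had attached to plastic, with no treatment given in the labels, and were sequenced at passage 3, with 3 samples in each group. The methods describe 6 rats in total, and 6 wells in each group, without tying samples to rats. The p-values therefore measure the spread between these samples, which may be technical.

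Hox genes encode homeodomain transcription factors that lie in 4 clusters, in which the order of the genes along the chromosome matches the order of the body regions in which they act. Genes with low paralog numbers act toward the head, those with high numbers toward the tail and the ends of the limbs. Fibroblasts and other mesenchymal cells of adults keep a Hox pattern that differs with the site from which they were taken. Polycomb complexes keep silent stretches of a cluster repressed, Trithorax complexes keep active stretches open, and the Hox proteins bind DNA together with TALE cofactors such as Pbx and Meis.

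Total counts ranged from 17591916 to 30299032 per sample, and levels are given as CPM, counts scaled to a common library size by edgeR's TMM method. A gene with 3 counts in a sample had 0.104 to 0.159 CPM, a limit that covers counting error only. Genes of ribosomal RNA took between 10.4% and 15.5% of the counts of SASCs, between 22.4% and 32.9% of those of PASCs and between 15.9% and 40.3% of those of EASCs, and every call on a Hox gene given here was also made when they were removed. The surface markers of ASCs had a summed CPM between 4149 and 4277 for SASCs, between 3784 and 3960 for PASCs and between 4960 and 5030 for EASCs over the 9 markers in the table, Thy1, Nt5e, Eng and Cd44 among them, but single markers went opposite ways. Pdgfra had a mean of 1542 CPM in SASCs, 278 in PASCs and 235 in EASCs and Dpp4 13.02, 1.44 and 0.845, whereas Itgb1 had 1045, 1813 and 2950, and Cd34 reached at most 4.33 CPM in a sample. In bulk RNA, fewer cells that express a gene and less RNA of it per cell cannot be told apart.

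The Hox genes fell into 3 classes of level. Those with enough counts for edgeR's filterByExpr, 17 in all, were Hoxb2 to Hoxb9, Hoxc4, Hoxc5, Hoxc6, Hoxc8, Hoxc9, Hoxc10, Hoxd3, Hoxd4 and Hoxd9. Another 14 were listed at 0 counts in all 9 samples: Hoxb1, Hoxb13, Hoxc12, Hoxd1, Hoxd12 and all of Hoxa except Hoxa9. The remaining 4 held a few counts without passing, with at most 3 counts in a sample for Hoxa9, 2 for Hoxc13, 8 for Hoxd10 and 3 for Hoxd13. The genes that passed thus formed an unbroken run in each of the Hoxb, Hoxc and Hoxd clusters, with Hoxb1, Hoxd1 and the posterior ends of all 3 clusters at or near 0 in all groups, while Hoxc4, the most anterior Hoxc gene, had counts throughout.

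**Figure D1:**
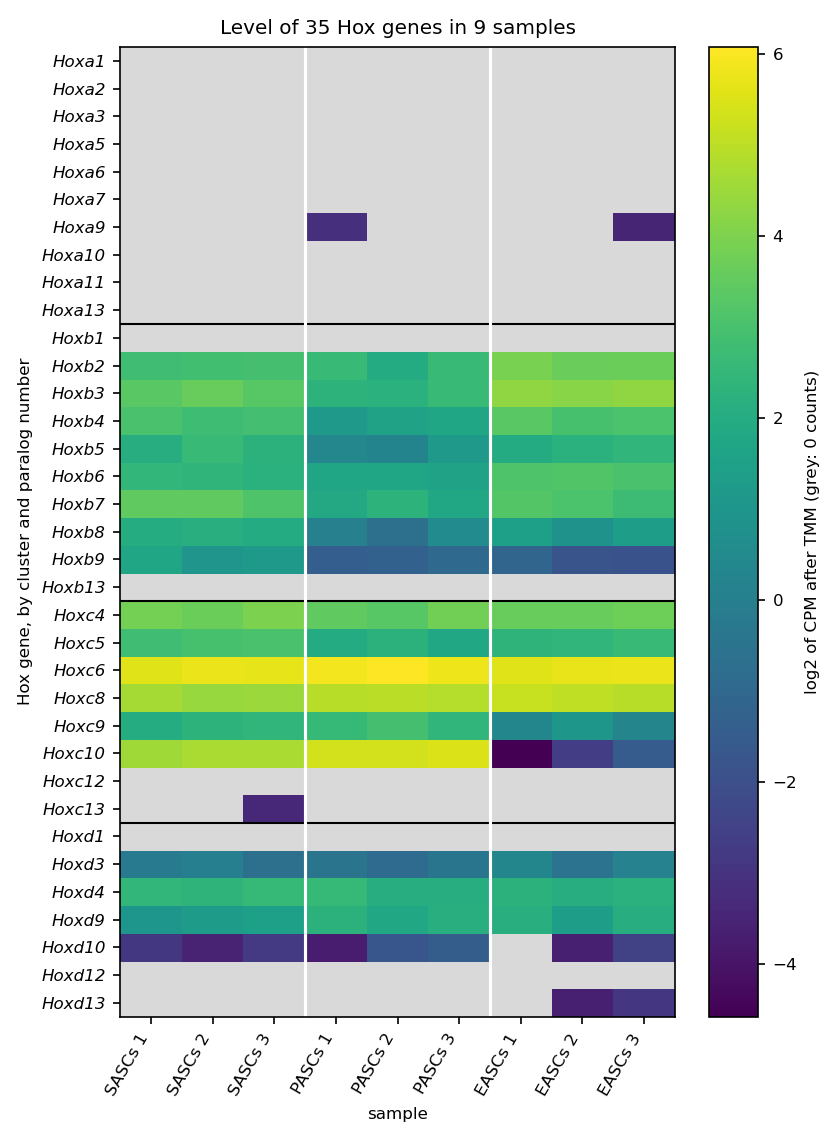
Level of the 35 Hox genes (rows, by cluster and paralog number) in the 9 samples (columns), as log2 of CPM after TMM, with grey for 0 counts. The row of Hoxc10 is bright in the 6 samples of SASCs and PASCs and dark in the 3 of EASCs, while Hoxb3 to Hoxb8 are darkest in PASCs and Hoxb9 is brightest in SASCs.

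Per kb of gene length, the scale on which genes can be set beside each other, the highest level in every group was that of Hoxc8, at 18.7 ± 1.27 CPM per kb (SD, n = 3) in SASCs, 24.8 ± 0.586 in PASCs and 27.1 ± 2.46 in EASCs. In SASCs and PASCs the next was Hoxc10, at 13.1 ± 0.882 and 21.9 ± 1.5 CPM per kb, and its samples did not overlap with those of the gene that followed. In EASCs Hoxc10 was the lowest of the 17 genes, at 0.0967 ± 0.0824 CPM per kb, and the next after Hoxc8 was Hoxb2, at 9.20 ± 0.966. The order in the middle was less sharp, since in SASCs the samples of each gene from Hoxb3 (3.10 CPM per kb) through Hoxb6, Hoxc5, Hoxc9 and Hoxb9 to Hoxb8 (2.55 CPM per kb) overlapped with those of the next. The lowest in SASCs and PASCs was Hoxd3, at 0.269 and 0.216 CPM per kb, and in PASCs its samples overlapped with those of Hoxb5.

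Summed by position, the posterior Hox genes (paralog numbers 9 to 13) held 35.3 ± 2.07 CPM (SD, n = 3) in SASCs, 53.7 ± 2.58 in PASCs and 5.95 ± 0.641 in EASCs. The anterior genes (numbers 1 to 4) had the opposite order of PASCs and EASCs, with 46.2 ± 1.19 CPM in SASCs, 30.4 ± 4.22 in PASCs and 59.5 ± 3.64 in EASCs. The central genes (numbers 5 to 8) held 106.5 ± 3.82, 105.05 ± 7.43 and 113.9 ± 1.17 CPM. Hoxc10 made up most of the posterior sum in SASCs and PASCs, and without it the sums were 9.90 ± 0.718, 11.2 ± 0.476 and 5.77 ± 0.608 CPM. These sums are values over genes and were not tested.

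All 14770 genes of the table that passed this filter were tested together with edgeR's quasi-likelihood test and Benjamini-Hochberg adjustment, and a gene was called where its adjusted p was under 0.05 and its level differed by more than 2 times. Between EASCs and SASCs, 3 of the 17 Hox genes were called lower (Hoxb9, Hoxc9 and Hoxc10) and 0 higher, where 14.2% of all genes tested were called lower and 13.5% higher. Between PASCs and SASCs, 6 were lower (Hoxb3, Hoxb4, Hoxb5, Hoxb7, Hoxb8 and Hoxb9) and 0 higher, with 14.9% and 12.0% of all genes. Between EASCs and PASCs, 7 were higher in EASCs (Hoxb2 to Hoxb8) and 2 lower (Hoxc9 and Hoxc10), with 5.19% and 2.20% of all genes. As a share of those tested, Hox genes were called in either direction at 17.6% beside a background of 27.8% in the first comparison, 35.3% beside 26.9% in the second and 52.9% beside 7.39% in the third. The 3 comparisons share their samples pairwise and are not independent of each other.

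The counts of 0 Hox genes called higher than in SASCs depended on the fold threshold. At an adjusted p under 0.05 and any fold, 5 Hox genes were higher and 6 lower in EASCs (35.5% and 34.3% of all genes), and 4 were higher and 10 lower in PASCs (34.6% and 34.6%). Between EASCs and PASCs 8 were higher and 3 lower (16.1% and 14.5%). The numbers of Hox genes were the same at an unadjusted p under 0.05, which 36.5% of all genes passed as higher and 35.4% as lower in EASCs against SASCs, 35.7% and 35.7% in PASCs against SASCs, and 19.9% and 19.1% in EASCs against PASCs. DESeq2 and limma also called 0 higher by more than 2 times in either group. The samples did not overlap for 10 of the 17 genes between EASCs and SASCs (72.1% of all genes tested), for 13 between PASCs and SASCs (71.6%) and for 11 between EASCs and PASCs (41.2%). The median log2 fold change of the 17 genes was -0.10 in EASCs and -0.44 in PASCs against SASCs and 0.42 in EASCs against PASCs, where the medians over all genes were 0.0061, -0.0082 and -0.0065.

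**Figure D2:**
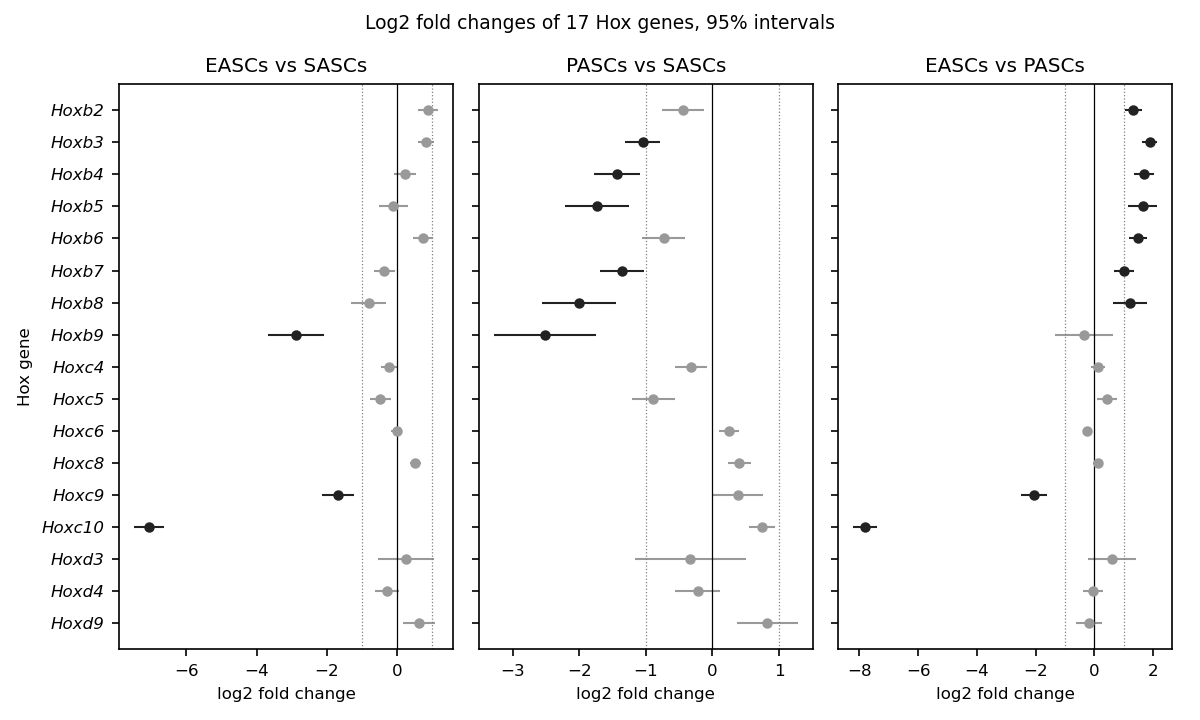
Log2 fold change (horizontal axis) of the 17 Hox genes tested, with 95% intervals from edgeR, for EASCs against SASCs, PASCs against SASCs and EASCs against PASCs; black points were called, and dotted lines mark a fold of 2. Hoxc10 lies at -7.07 and -7.81 in the comparisons of EASCs, and the 8 Hoxb genes lie to the left for PASCs against SASCs and, except Hoxb9, to the right for EASCs against PASCs.

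In the Hoxc cluster, which patterns the trunk and hindlimb, the called differences between depots lay at the posterior end. Positions here and for the other clusters are those of the table, on the build rn6 that the methods name. Hoxc10, a hindlimb and lumbosacral gene (chr7:144577512-144582802, plus strand), had 23.4, 26.6 and 26.2 CPM in SASCs 1 to 3, 40.4, 41.2 and 45.8 CPM in PASCs 1 to 3, and 0.0418, 0.162 and 0.358 CPM in EASCs 1 to 3. The 3 groups did not overlap, and in EASCs the gene was nearly absent, with 1, 4 and 8 counts. Its counts gave a level 137.6 times higher in SASCs than in EASCs (exact 95% interval 80.2 to 259) and 229.8 times higher in PASCs than in EASCs (134 to 432). These intervals cover counting error only and were computed after the low counts had been seen, because the standard errors of edgeR's log2 fold changes of -7.07 ± 0.204 (SE, adjusted p = 1.54e-21) and -7.81 ± 0.192 (SE, adjusted p = 1.04e-21) are narrower than the counting error of 13 reads. Of these reads 8 were in EASCs 3, and without that sample the log2 fold changes were -7.87 and -8.61. Hoxc10 passed the filter through SASCs and PASCs alone, so that a difference from EASCs is partly fixed by the filter. PASCs exceeded SASCs by a log2 fold change of 0.74 ± 0.0932 (SE, adjusted p = 7.45e-08, edgeR), a fold of 1.67 that is under the threshold.

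Hoxc9, the neighbour of Hoxc10 on its anterior side and a gene of the thoracic trunk (chr7:144592470-144598807), had 4.10, 5.01 and 5.46 CPM in SASCs 1 to 3, 5.81, 7.55 and 5.40 CPM in PASCs 1 to 3, and 1.26, 2.07 and 1.21 CPM in EASCs 1 to 3. EASCs lay below both other groups without overlap, while SASCs and PASCs overlapped. The log2 fold change was -1.67 ± 0.222 (SE, adjusted p = 2.12e-07, edgeR) against SASCs and -2.05 ± 0.217 (SE, adjusted p = 1.84e-08) against PASCs. Between PASCs and SASCs it was 0.38 (adjusted p = 0.0731).

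The other Hoxc genes with counts, Hoxc4 to Hoxc8, were called in no comparison. Hoxc8 (chr7:144605072-144607639), on the anterior side of Hoxc9, held 23.0 ± 1.57 CPM (SD, n = 3) in SASCs, 30.5 ± 0.720 in PASCs and 33.3 ± 3.03 in EASCs, and its log2 fold change was 0.53 in EASCs (adjusted p = 1.67e-06, edgeR) and 0.40 in PASCs (adjusted p = 8.3e-05) against SASCs. Hoxc6 held 51.3 ± 3.49, 60.8 ± 5.95 and 51.2 ± 3.72 CPM, and the 95% interval of its log2 fold change between EASCs and SASCs ran from -0.15 to 0.15. Hoxc4 held 14.4 ± 1.46, 11.6 ± 2.11 and 12.5 ± 0.467 CPM and Hoxc5 7.69 ± 0.534, 4.11 ± 0.648 and 5.57 ± 0.619 CPM in SASCs, PASCs and EASCs. Hoxc5 was lower in PASCs than in SASCs by a log2 fold change of -0.89 (adjusted p = 1.33e-05), under the threshold of fold.

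The step between Hoxc8 and Hoxc10 was also seen within each sample, as a ratio of levels per kb chosen after the values had been seen. The ratio of Hoxc10 to Hoxc8 was 0.000731 to 0.00750 in EASCs, 0.835 to 0.968 in PASCs and 0.600 to 0.771 in SASCs. That of Hoxc9 to Hoxc8 was 0.0234 to 0.0420 in EASCs, 0.122 to 0.164 in PASCs and 0.112 to 0.166 in SASCs. In EASCs the level thus dropped at Hoxc9 and again at Hoxc10, whereas in the other 2 groups Hoxc10 stood above Hoxc9 in every sample, by 4.48 to 5.34 times in SASCs and 5.11 to 7.93 times in PASCs.

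Beyond Hoxc10 lies a locus that the table names LOC100911859 (chr7:144565086-144567596) and whose gene ID belongs to Hoxc11 in the RefSeq annotation of GRCr8. It had 1.53, 1.40 and 1.22 CPM in SASCs 1 to 3, 0.650, 0.560 and 0 CPM in PASCs 1 to 3, and 0 counts in all 3 samples of EASCs. With EASCs set to 3 counts over the group, SASCs were at least 33.1-fold higher and PASCs at least 10.5-fold higher, although PASCs 3 was also at 0, so that PASCs and EASCs overlapped. Against SASCs the log2 fold change in PASCs was -1.68 ± 0.525 (SE, adjusted p = 0.0067, edgeR). EASCs thus had no counts on this locus, but the locus passed the filter through SASCs alone. Hoxc12 was at 0 in all 3 groups, and Hoxc13 had counts only in SASCs 3, where it had 2.

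**Figure D3:**
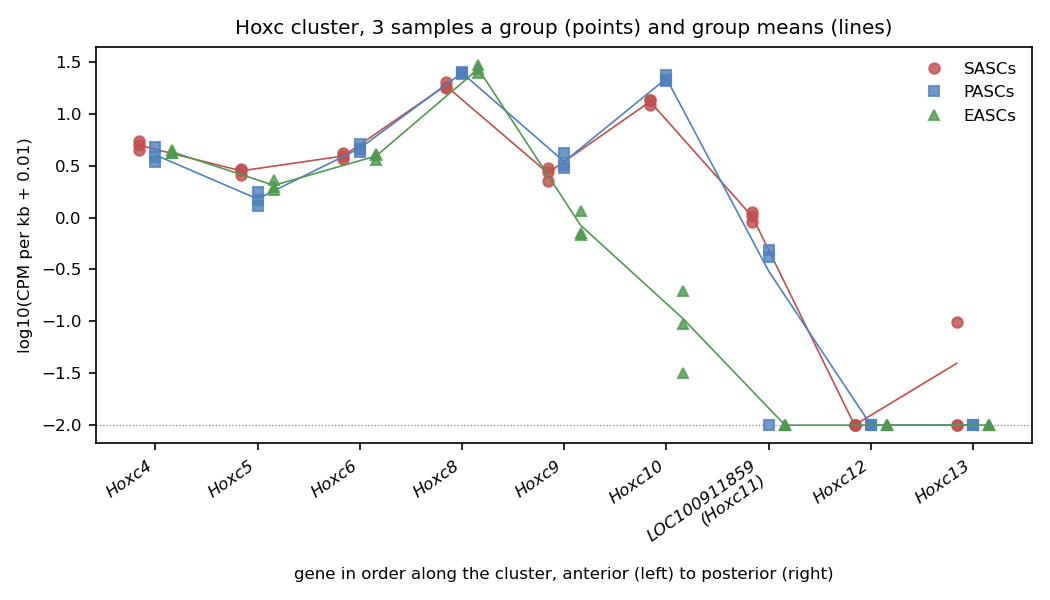
Level along the Hoxc cluster, from the anterior gene Hoxc4 on the left to Hoxc13 on the right, as log10 of CPM per kb plus 0.01; points are the 3 samples of a group, lines join group means, and the dotted line marks 0 counts. The 3 groups lie near each other from Hoxc4 to Hoxc8, without overlap at Hoxc5, and EASCs fall away from Hoxc9 on, to 0.0967 CPM per kb at Hoxc10.

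In the Hoxb cluster, which patterns the hindbrain, neck and trunk, PASCs had the lowest levels from Hoxb2 to Hoxb8, and the summed level of the cluster was 52.5 ± 2.54 CPM (SD, n = 3) in SASCs, 23.6 ± 2.26 in PASCs and 65.6 ± 3.98 in EASCs. All 8 Hoxb genes tested were lower in PASCs than in SASCs at an adjusted p under 0.05 (edgeR), as were 34.6% of all genes, 6 of them by more than 2 times (14.9%), and in all 8 the samples did not overlap (71.6%). Against PASCs, EASCs were called higher for 7 of the 8 (5.19%). The median log2 fold change of the 8 genes was 0.07 in EASCs and -1.40 in PASCs against SASCs. The gene model of Hoxb5 overlaps those of Hoxb3 and Hoxb4, so reads may have been shared and these genes may not count as separate.

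Hoxb9, the most posterior Hoxb gene with counts (chr10:84119884-84123390, plus strand), was the exception. It had 3.23, 1.95 and 2.29 CPM in SASCs 1 to 3, 0.382, 0.411 and 0.529 CPM in PASCs 1 to 3, and 0.460, 0.284 and 0.268 CPM in EASCs 1 to 3. PASCs and EASCs both lay below SASCs without overlap and overlapped with each other. The log2 fold change against SASCs was -2.87 ± 0.389 (SE, adjusted p = 2.74e-07, edgeR) in EASCs and -2.51 ± 0.374 (SE, adjusted p = 1.27e-06) in PASCs, and between EASCs and PASCs it was -0.36, with a 95% interval from -1.33 to 0.62 (adjusted p = 0.622). The counts behind these values were 186 in SASCs, 31 in PASCs and 24 in EASCs. Hoxb9 passed the filter through SASCs alone, so that a lower level elsewhere is partly fixed by the filter.

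Hoxb8 (chr10:84131483-84133874), next on the anterior side, had 4.03, 4.37 and 3.95 CPM in SASCs 1 to 3, 1.03, 0.635 and 1.48 CPM in PASCs 1 to 3, and 2.72, 1.78 and 2.59 CPM in EASCs 1 to 3. Its 3 groups did not overlap, with SASCs highest and PASCs lowest. The log2 fold change was -2.01 ± 0.270 (SE, adjusted p = 2.43e-07, edgeR) in PASCs against SASCs, -0.80 ± 0.241 (SE, adjusted p = 0.00464) in EASCs against SASCs and 1.21 ± 0.284 (SE, adjusted p = 0.00155) in EASCs against PASCs. Without PASCs 2 the last value was 0.93 and no longer passed the fold threshold.

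Hoxb3, an anterior gene of the hindbrain and pharyngeal arches (chr10:84182118-84196823), had 10.2, 12.1 and 10.0 CPM in SASCs 1 to 3, 4.89, 4.67 and 6.25 CPM in PASCs 1 to 3, and 19.5, 18.4 and 19.8 CPM in EASCs 1 to 3. The 3 groups did not overlap, and here EASCs were highest. The log2 fold change was -1.05 ± 0.127 (SE, adjusted p = 3.99e-08, edgeR) in PASCs against SASCs, 0.83 ± 0.112 (SE, adjusted p = 2.37e-07) in EASCs against SASCs and 1.88 ± 0.122 (SE, adjusted p = 1.03e-12) in EASCs against PASCs. The first of these came to -0.96 without SASCs 2, -0.9998 without PASCs 1 and -0.97 without PASCs 2, in each case just short of a fold of 2.

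Hoxb5 (chr10:84150319-84191398) had 4.20, 5.98 and 4.88 CPM in SASCs 1 to 3, 1.26, 1.16 and 2.22 CPM in PASCs 1 to 3, and 3.93, 4.66 and 5.45 CPM in EASCs 1 to 3. SASCs and EASCs overlapped, and PASCs lay below both. The log2 fold change was -1.74 ± 0.234 (SE, adjusted p = 2.6e-07, edgeR) in PASCs against SASCs and 1.64 ± 0.236 (SE, adjusted p = 3.37e-06) in EASCs against PASCs. The gene model of Hoxb5 in the table runs over 2583 bases of Hoxb4 and 9281 bases of Hoxb3 on the same strand, so reads may have been shared among the 3 genes.

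The other Hoxb genes had the same order of PASCs below EASCs. Hoxb4 held 7.40 ± 0.714 CPM (SD, n = 3) in SASCs, 2.76 ± 0.517 in PASCs and 8.75 ± 1.20 in EASCs, with a log2 fold change of -1.44 in PASCs against SASCs (adjusted p = 2.05e-08, edgeR) and 1.68 in EASCs against PASCs (adjusted p = 5.06e-09). Hoxb7 held 10.3 ± 1.30, 4.01 ± 0.873 and 8.11 ± 1.45 CPM, with -1.36 (adjusted p = 3.12e-08) and 1.00 (adjusted p = 2.39e-05). The value of Hoxb7 between EASCs and PASCs, a fold of 2.01, sat on the threshold, and leaving out PASCs 1, PASCs 3, EASCs 1 or EASCs 2 put it at 0.88 to 0.99. Hoxb2 held 7.28 ± 0.401, 5.41 ± 1.29 and 13.5 ± 1.42 CPM and Hoxb6 5.12 ± 0.406, 3.09 ± 0.152 and 8.62 ± 0.465 CPM, and these were called only between EASCs and PASCs, at 1.33 and 1.48 (adjusted p = 3.18e-08 and 8.72e-09).

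The change in EASCs against SASCs differed in direction among the Hoxb genes, and a trend along the cluster was not tested. Hoxb2, Hoxb3 and Hoxb6 were higher in EASCs at an adjusted p under 0.05 (log2 fold changes of 0.89, 0.83 and 0.75, edgeR), Hoxb4 and Hoxb5 had 0.24 and -0.10 (adjusted p = 0.151 and 0.678), and Hoxb7, Hoxb8 and Hoxb9 were lower (-0.35, -0.80 and -2.87). Of the 8 only Hoxb9, which passed the filter through SASCs alone, was called. Within samples, the ratio of Hoxb9 to Hoxb2 per kb was 0.0326 to 0.0477 in EASCs, 0.0978 to 0.164 in PASCs and 0.423 to 0.731 in SASCs, a ratio chosen after the values had been seen.

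**Figure D4:**
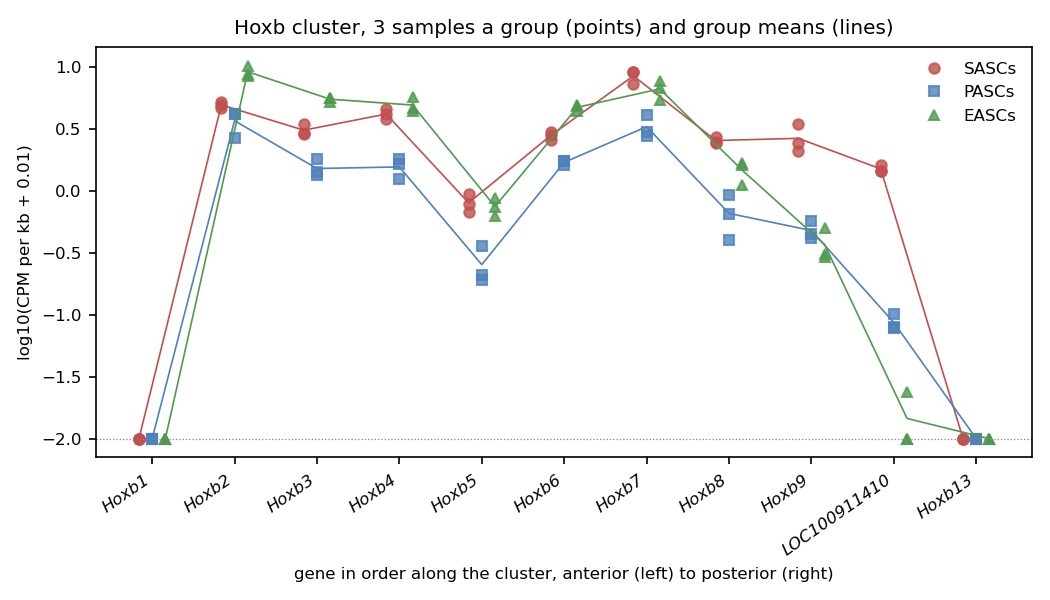
Level along the Hoxb cluster, from Hoxb1 on the left to Hoxb13 on the right, as log10 of CPM per kb plus 0.01; points are the 3 samples of a group, lines join group means, and the dotted line marks 0 counts. PASCs lie below SASCs and EASCs from Hoxb3 to Hoxb8, and at LOC100911410, between Hoxb9 and Hoxb13, only SASCs stay near the level of Hoxb9.

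Between Hoxb9 and Hoxb13 the table lists LOC100911410, an uncharacterized transcript that is not a Hox gene (chr10:84099076-84117851, plus strand). It had 8.86, 9.80 and 8.83 CPM in SASCs 1 to 3, 0.421, 0.560 and 0.423 CPM in PASCs 1 to 3, and 0.0837, 0 and 0 CPM in EASCs 1 to 3. SASCs lay above PASCs and PASCs above EASCs, without overlap. On 667, 34 and 2 counts, with both counts of EASCs in EASCs 1, the level in SASCs was 19.3 times that in PASCs (exact 95% interval of the counting error 13.7 to 28.2) and 325 times that in EASCs (89.6 to 2688). This transcript and Hoxb9, its neighbour, were both highest in SASCs, and both passed the filter through SASCs alone. LOC102550580, which overlaps 1049 bases of Hoxb3 on the opposite strand, had 0.417, 0.339 and 0.537 CPM in SASCs 1 to 3, 0.306, 0.187 and 0.212 CPM in PASCs 1 to 3, and 1.26, 0.284 and 0.537 CPM in EASCs 1 to 3. EASCs overlapped with both other groups, and EASCs 1 stood above all other samples. The log2 fold change of 1.53 ± 0.576 (SE, adjusted p = 0.0447, edgeR) in EASCs against PASCs fell to 0.77 (adjusted p = 0.440) without EASCs 1, and leaving out any other sample except EASCs 2 also ended the call, at an adjusted p of 0.0554 to 0.148. The use of strand in counting is not stated in the sources used here, and reads of Hoxb3 and of this locus may not have been separated.

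The Hoxd cluster, best known from the limbs and the tail end of the trunk, held no called gene among the 3 of its 7 members tested. Over all genes, 27.8% were called between EASCs and SASCs, 26.9% between PASCs and SASCs and 7.39% between EASCs and PASCs. The sum of the cluster was 8.86 ± 0.484 CPM (SD, n = 3) in SASCs, 9.83 ± 1.5 in PASCs and 9.47 ± 1.61 in EASCs. Hoxd9 (chr3:61620192-61622360) held 2.40 ± 0.341, 4.22 ± 0.699 and 3.73 ± 1.03 CPM, and its log2 fold change against SASCs was 0.82 in PASCs (adjusted p = 0.00197, edgeR) and 0.64 in EASCs (adjusted p = 0.0134). Hoxd4 held 5.49 ± 0.406, 4.68 ± 0.977 and 4.56 ± 0.310 CPM and Hoxd3 0.840 ± 0.194, 0.676 ± 0.100 and 1.02 ± 0.296 CPM, without an adjusted p under 0.05 in any comparison. The intervals of Hoxd3 were wide, from -0.52 to 1.06 between EASCs and SASCs, and its gene model shares 2994 bases with that of Hoxd4 on the same strand. LOC100912936, whose gene ID belongs to Hoxd8 in RefSeq, lies between Hoxd9 and Hoxd4 and had 15.6 ± 1.37, 19.4 ± 2.20 and 17.1 ± 0.771 CPM, with no call. Per kb this was more than any gene of the cluster that carries a Hoxd symbol, at 7.82 CPM per kb in SASCs beside 1.32 for Hoxd9.

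At the posterior side of Hoxd9 the level fell to near 0 in every group. Hoxd10 had 0 to 8 counts in a sample, and the ratio of Hoxd10 to Hoxd9 per kb was at most 0.0857 in any sample. The locus with the gene ID of Hoxd11 in RefSeq, LOC102553842, had at most 4 counts in a sample. Hoxd10 was thus near 0 in all 3 groups, where Hoxc10 was near 0 in EASCs alone. The promoters of both genes at this boundary are shown because their levels part there in all samples. They are RefSeq sequences of the GRCr8 build, 250 bases before to 50 after the start of the gene, plus strand, at chr3:80007756-80008055 for Hoxd9 and chr3:80001697-80001996 for Hoxd10. Capitals mark CACGTG, a palindromic E-box, which begins 56 bases before the start of Hoxd9 and 62 bases before that of Hoxd10.
Hoxd9: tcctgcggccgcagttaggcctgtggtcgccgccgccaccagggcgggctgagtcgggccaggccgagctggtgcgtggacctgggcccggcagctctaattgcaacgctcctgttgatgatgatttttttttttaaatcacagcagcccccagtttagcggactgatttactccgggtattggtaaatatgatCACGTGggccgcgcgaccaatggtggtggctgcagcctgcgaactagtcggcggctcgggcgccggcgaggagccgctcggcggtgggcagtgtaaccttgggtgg
Hoxd10: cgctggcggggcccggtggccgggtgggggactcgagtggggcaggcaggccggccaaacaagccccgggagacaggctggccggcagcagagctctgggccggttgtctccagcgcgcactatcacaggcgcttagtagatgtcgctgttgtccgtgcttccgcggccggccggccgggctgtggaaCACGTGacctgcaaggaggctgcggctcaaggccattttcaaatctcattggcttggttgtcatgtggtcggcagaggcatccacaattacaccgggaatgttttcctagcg

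The E-box was picked after these sequences had been read. Of the 35 Hox genes, 17 had a promoter of this kind in the RefSeq table, which are not the 17 tested: 4 of them passed the filter (Hoxc4, Hoxd3, Hoxd4 and Hoxd9), and 0 were called in any comparison. CACGTG stood in 6 of these promoters (Hoxa7, Hoxa9, Hoxd1, Hoxd3, Hoxd9 and Hoxd10), or 35.3%, where 6.42% of all 33469 promoters held it. It was found in promoters of genes with counts (Hoxd9) and of genes at 0 (Hoxd1). The CCAAT box, searched as CCAAT on both strands, stood in 70.6% of the 17 and 37.5% of all promoters, and TATAAA in 17.6% and 14.2%. TTTATG, a core of Cdx sites, stood in 11.8% and 12.7%, and TGATTNAT, a form of the joint Pbx and Hox site, in 5.88% and 3.18%. The 17 promoters held a median of 19 CpG dinucleotides and 60.7% GC, and all promoters 7 and 51.7%. These matches describe the letters only.

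All 10 Hoxa genes were at or near 0, and here the table itself limits what the counts can show. The table lists 35 loci for the Hoxa region, 22 of them on the assembled chromosome 4 between Skap2 and Evx1 and 13 on a scaffold not placed on it, and 28 of the 35 were at 0 in all samples, where 36.4% of all loci were. Of these loci, 18 shared their length with another locus of the region, and 10 pairs of equal length on the chromosome and the scaffold had only 2 offsets between their positions, to within 1 base. The region is therefore listed more than once, at least in part. The part of this repetition in the zeros was not tested, and 13 of the 17 loci with a length of their own were at 0 as well. A length of its own does not show that a locus is listed once, so this count does not separate single from repeated loci. In the row named Hoxa11 the description is that of Hoxa2. Of the genes that bound the region, Skap2 had 527 to 1017 counts in a sample and Evx1 was at 0 in all 9 samples, while Hibadh, beyond Evx1, had 958 to 1519. The Hoxa genes are thus given as listed at or near 0, and no absence of their RNA is read from it.

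The 2 loci of this region that passed the filter carry other names, and their values are uncertain where reads were divided among copies. LOC100909604, described in the table as Hox-A6-like, held 0.948 ± 0.282 CPM (SD, n = 3) in SASCs, 1.06 ± 0.321 in PASCs and 0.323 ± 0.0826 in EASCs, and was called lower in EASCs, by a log2 fold change of -1.52 ± 0.460 (SE, adjusted p = 0.00495, edgeR) against SASCs and -1.72 ± 0.452 (SE, adjusted p = 0.00423) against PASCs. It passed the filter through SASCs and PASCs alone, so that a lower level in EASCs is partly fixed by the filter. RGD1564419, whose gene ID belongs to the antisense RNA Hoxa11-as in RefSeq, had 0.174, 0.127 and 0.0976 CPM in SASCs 1 to 3, 0.574, 0.598 and 0.741 CPM in PASCs 1 to 3, and 0 counts in EASCs. PASCs lay above SASCs without overlap, by 4.56 times (exact 95% interval of the counting error 2.27 to 10.2, edgeR's adjusted p = 0.0028). With EASCs set to 3 counts over the group, SASCs were at least 3.25-fold and PASCs at least 14.8-fold higher, although the locus passed the filter through PASCs alone. At the other end of the cluster, LOC102548178, the gene ID of Hotairm1 in RefSeq, did not pass the filter and had 18, 22 and 11 counts in EASCs, 8, 1 and 5 in SASCs and 8, 9 and 6 in PASCs; it was named after its values had been seen.

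The TALE cofactors, which bind DNA with Hox proteins, summed to between 382 and 478 CPM in every sample. Of 12 genes on the list, of which 1 had at most 3 counts in each sample of SASCs and of PASCs, 11 were tested, and 1 was higher in EASCs than in SASCs (13.5% of all genes tested) and 1 higher and 1 lower in PASCs (12.0% and 14.9%). Between EASCs and PASCs 0 were called, where 5 were higher and 2 lower at an unadjusted p under 0.05 in edgeR (19.9% and 19.1% of all genes). Meis1 held 19.4 ± 1.37 CPM (SD, n = 3) in SASCs, 42.1 ± 1.5 in PASCs and 62.7 ± 1.39 in EASCs, a log2 fold change of 1.13 in PASCs and 1.70 in EASCs (adjusted p = 1.03e-13 and 7.33e-18, edgeR). Tgif1, a TALE repressor, fell from 43.9 ± 3.69 CPM in SASCs to 21.4 ± 1.06 in PASCs, by 1.04 on the log2 scale (adjusted p = 2.73e-12), and had 28.4 ± 0.678 CPM in EASCs. Pbx3 held 16 ± 1.34, 31.8 ± 0.757 and 30.4 ± 2.09 CPM, under the fold threshold. The median log2 fold change of the list was 0.18 in EASCs and -0.03 in PASCs against SASCs.

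Retinoic acid and Cdx proteins set Hox domains in the embryo. No Cdx gene passed the filter, and Cdx4 was at 0 counts in every group. Of 18 genes on a list of these regulators, which also held Gdf11, Evx1 and Evx2, 9 were tested. Against SASCs, 1 was higher and 2 lower in EASCs (13.5% and 14.2% of all genes), and 1 was higher and 3 lower in PASCs (12.0% and 14.9%), while 2 were called between EASCs and PASCs, both higher in EASCs (5.19% of all genes). Aldh1a2, a retinoic acid synthesizing enzyme, held 2.39 ± 0.737 CPM (SD, n = 3) in SASCs, 0.384 ± 0.222 in PASCs and 3.23 ± 0.280 in EASCs, and Cyp26b1, which degrades retinoic acid, 0.756 ± 0.376, 0.185 ± 0.136 and 1.32 ± 0.419 CPM. Both were lower in PASCs than in SASCs (log2 fold changes of -2.58 and -2.06, adjusted p = 3.26e-07 and 0.00287, edgeR) and higher in EASCs than in PASCs (2.99 and 2.82, adjusted p = 7.5e-08 and 0.000218). A link between the genes of this list and the Hox values was not tested. Aldh1a3, another synthesizing enzyme, was near 0 in SASCs (0.0116 ± 0.0201 CPM) and held 0.573 ± 0.253 CPM in PASCs and 1.20 ± 0.163 in EASCs. It did not pass the filter through SASCs, so that a higher level elsewhere is partly fixed by the filter. Named outside the rule for the list after their values had been seen, Rarb, a retinoic acid receptor, fell by 2.31 in EASCs and by 2.53 in PASCs on the log2 scale (adjusted p = 2.16e-07 and 6.72e-08, edgeR), and Rxra, a partner receptor, fell by 1.30 in EASCs (adjusted p = 3.18e-11), all against SASCs.

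Of the 26 Polycomb genes 25 were tested, and 3 were called between EASCs and SASCs, all higher in EASCs (13.5% of all genes), 3 were higher and 1 lower in PASCs than in SASCs (12.0% and 14.9%), and 1 was called between EASCs and PASCs, lower in EASCs (2.20%). Against SASCs, the shares of the list that were called were no higher than those of all genes. At an unadjusted p under 0.05 in edgeR, 14 were higher and 7 lower in EASCs than in SASCs (36.5% and 35.4% of all genes). In PASCs against SASCs 12 were higher and 5 lower at that p (35.7% and 35.7%). Phf19, an accessory subunit of PRC2, held 1.69 ± 0.117 CPM (SD, n = 3) in SASCs, 11.6 ± 1.10 in PASCs and 5.01 ± 0.156 in EASCs and was called in all 3 comparisons (log2 fold changes of 1.56 in EASCs and 2.77 in PASCs against SASCs and -1.21 in EASCs against PASCs, adjusted p = 6.24e-09, 1e-14 and 6.17e-08, edgeR). The PRC1 subunits Cbx2, with 1.42 (adjusted p = 1.84e-08), and Cbx8, with 1.28 (adjusted p = 1.27e-06), were higher in EASCs than in SASCs. Cbx8 was also higher in PASCs than in SASCs, at 1.38 (adjusted p = 3.07e-07), as was Ezh2, the methyltransferase of PRC2, at 1.03 (adjusted p = 1.64e-10), while Cbx7 had -1.13 (adjusted p = 4.02e-07). Ezh2 and Cbx7 were named after their values had been seen. The median log2 fold change of the list was 0.25 in EASCs and 0.13 in PASCs against SASCs. Of the Trithorax genes and H3K27 demethylases 13 of 14 were tested, and 0 were called in EASCs against SASCs, where 4 were higher and 7 lower at an unadjusted p under 0.05 in edgeR (36.5% and 35.4% of all genes). In PASCs against SASCs 2 were higher (12.0% of all genes), Dpy30 and Psip1 (1.07 and 1.06, adjusted p = 1.63e-11 and 7.5e-13), with 0.74 for Rbbp5. At an unadjusted p under 0.05 the same comparison had 5 higher and 8 lower (35.7% and 35.7% of all genes), with Ash1l at -0.74 and Kmt2c at -0.64, both named after their values had been seen, and the median of the list was -0.25. Between EASCs and PASCs 0 were called (3 higher and 2 lower at an unadjusted p under 0.05, beside 19.9% and 19.1% of all genes).

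Of 9 genes that flank the clusters 6 were tested, and 1 was called. Cbx5, a heterochromatin protein gene beside Hoxc, held 8.19 ± 0.482 CPM (SD, n = 3) in SASCs, 18.3 ± 0.520 in PASCs and 15.3 ± 1.35 in EASCs and was higher in PASCs than in SASCs by a log2 fold change of 1.16 (adjusted p = 1.28e-10, edgeR), where 12.0% of all genes were called higher. Against SASCs 0 were called in EASCs, where 3 were higher and 2 lower at an unadjusted p under 0.05 in edgeR (36.5% and 35.4% of all genes), and 0 were called between EASCs and PASCs, where 0 were higher and 1 lower at that p (19.9% and 19.1%). Mtx2, beside Hoxd, held 20.1 ± 1.65, 27.6 ± 2.86 and 24.5 ± 1.63 CPM and Smug1, beside Hoxc, 17.9 ± 1.33, 22.1 ± 0.311 and 20.8 ± 0.412 CPM in SASCs, PASCs and EASCs. The median log2 fold changes of the 6 genes were 0.13, 0.12 and -0.10 in EASCs and PASCs against SASCs and in EASCs against PASCs. Skap1 and Calcoco1 of this list were at 0 counts in every group. As for Hoxa, no absence of their RNA is read from that.

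Markers of other cells moved with the groups as well. As summed levels in CPM, 10 mesothelial markers held between 23.8 and 24.4 in SASCs, between 109.4 and 117.4 in PASCs and between 158 and 168 in EASCs, with 8 of 9 tested called higher in EASCs and 9 of 9 in PASCs against SASCs (13.5% and 12.0% of all genes). Smooth muscle and pericyte markers (7 genes) held, in the same order of groups, 160 to 169, 1071 to 1093 and 2720 to 2762, with Acta2 alone at a mean of 2199 in EASCs, and 6 leukocyte markers 48.6 to 53.1, 118 to 123 and 171 to 182. Adipocyte markers (6 genes) held 97.5 to 106.5, 22.2 to 24.0 and 11.5 to 12.6, and 7 endothelial markers 54.9 to 56.1, 13.9 to 17 and 37.8 to 40.7. The endothelial sum, like the Hoxb sum, was lowest in PASCs, where 6 of the 7 genes were called lower and Tek higher than in SASCs (14.9% and 12.0% of all genes), with Tek at 2.55 CPM in SASCs, 8.29 in PASCs and 8.07 in EASCs. The mesothelial and smooth muscle sums were highest in EASCs, where Hoxc9 and Hoxc10 were lowest, but not every marker followed its sum. Upk1b, of the mesothelial list, was highest in PASCs (4.17 CPM, beside 2.12 in EASCs), as was Cspg4 of the smooth muscle list (66.5 CPM, beside 50.2). Krt18, Upk3b and Bnc1 of the mesothelial list had at most 0, 2 and 6 counts in a sample of SASCs. Their higher level in EASCs and PASCs is thus partly fixed by the filter. Against SASCs, 5 of the 7 smooth muscle and pericyte markers were called higher in EASCs, and Notch3 (48.0 CPM in SASCs and 22.5 in EASCs) and Rgs5 (1.25 and 0.169 CPM) were called lower (13.5% and 14.2% of all genes). Rgs5 had at most 4 counts in a sample of PASCs and 7 in a sample of EASCs, so that its lower level is partly fixed by the filter. S100b, a gene of Schwann cells among others, held 29.8 ± 1.83 CPM (SD, n = 3) in SASCs, 6.94 ± 0.429 in PASCs and 1.47 ± 0.198 in EASCs. The part of these cells in the Hox values was not tested. Skeletal muscle markers were at most 0.574 CPM in sum, with Myog, Myf5 and Pax7 at 0 in every sample and Myod1 at 0 in EASCs. Markers of the epithelium of the epididymis or kidney reached 1.80 to 1.83 CPM in EASCs, 0.582 to 1.45 in PASCs and 0.146 to 0.339 in SASCs.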

How the data were processed

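RNA of 9 samples, 3 each of SASCs, PASCs and EASCs, was analysed, with groups and replicate numbers taken from the titles in the labels. The authors trimmed paired-end reads of adaptors and bases of low quality, aligned them with TopHat2 and deposited raw read counts per gene, with gene lengths, for 35362 genes. The paper's methods name the build rn6 and the submitters' processing notes rn5; the scaffold names in the table are those of rn6, and positions are given as in the table. The counting tool, strand and treatment of reads matching several genes are not given in the sources used here.

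The members and the lists were chosen with earlier results of these data known, and the lists come from general knowledge. Counts were scaled by TMM (factors 0.740 to 1.23), filtered by filterByExpr and fitted with edgeR 4.0.16 in R 4.3.3, with all 9 samples in a model of 3 groups and no block (common biological coefficient of variation 0.0685). In simulated counts for EASCs against SASCs over 14770 genes, 99 of 100 genes changed by 1.5 on the log2 scale and 100 of 100 changed by 3 were called, with 3 false calls. The changed genes were drawn from those above a minimum mean level, and all genes were given the common spread. These numbers therefore do not cover genes of low level or of wider spread. Exact intervals used SciPy 1.17.1. Alternatives were DESeq2 1.42.0, limma 3.58.1 on log2(FPKM + 1), no filter, total counts, removal of rRNA genes, 2 groups at a time, the replicate number as a block, other thresholds and leaving out each sample. The last was also run for the loci between Hox genes, a choice made after seeing the data. No pair of samples of a group agreed within counting noise (chi-square per degree of freedom 6.06 to 273.6).

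Named genes were all Hox genes, with values per sample for up to 4 called members of each cluster with the largest change, loci between Hox genes that passed the filter, and the 3 genes with the largest change of each list of partners and regulators. Marker lists are given as sums or by single genes, and some markers are not reported here. The named genes outside this rule, and the ratios between neighbours, were chosen after their values were seen.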

Additional observations from a re-analysis of the deposited data

How the results depend on the processing

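All 18 called values of Hox genes kept their direction in every alternative, and all 18 stayed called with DESeq2, without a filter, with rRNA genes removed, with only the 2 groups compared, and with the replicate number as a block, which left the counts of calls at 0 higher and 3 lower (EASCs against SASCs), 0 and 6 (PASCs against SASCs), and 7 and 2 (EASCs against PASCs). Deviations of same-numbered samples correlated at -0.0348 to 0.0380, which cannot show whether such samples share a rat or a batch. At an adjusted p under 0.05 and any fold, the counts rose to 5 higher and 6 lower in EASCs and to 4 higher and 10 lower in PASCs against SASCs, because the fold threshold was dropped. At a fold above 4, 2 genes were lower in PASCs than in SASCs, and 0 were higher in EASCs than in PASCs (7 at a fold above 2). With limma on log2(FPKM + 1), which changed the test, the scaling (no TMM) and the pseudocount together and moved the medians of all genes to -0.25 (EASCs against SASCs), -0.20 (PASCs against SASCs) and -0.05, 4 were higher in EASCs than in PASCs, with Hoxb5 at 0.43, Hoxb7 at 0.76 and Hoxb8 at 0.51, and Hoxb3 at -0.94 and Hoxb5 at -0.65 in PASCs against SASCs also missed the fold of 2; Hoxc10 then came to -3.93 and -4.33 in EASCs against SASCs and PASCs, and which of the 3 changes was the cause was not tested. Total counts without TMM moved the median of all genes to -0.39 and -0.33 in EASCs and PASCs against SASCs, and Hoxb7 to 0.96 between EASCs and PASCs, with 4 Hox genes called lower in EASCs and 8 in PASCs against SASCs. With each sample left out in turn, 6 to 7 Hox genes were higher in EASCs than in PASCs and 5 to 6 lower in PASCs than in SASCs, and 3 and 2 were lower in EASCs than in SASCs and PASCs each time. Depth limits Hoxc10 and Hoxb9 in EASCs and the 4 Hox genes with a few counts.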
